A study of Homo sapiens with 4 samples.

Results

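The 8 genes FAP, DPP4, POSTN, PDPN, THY1, S100A4, TNC and VIM, which are used as markers of activated fibroblasts, were followed in RNA sequencing of senescent lung fibroblasts with and without G3BP1. They were found by their gene symbols among the 58219 genes of the deposited table, and each symbol matched 1 gene. The genes were selected on the siG3BP1 and siCTL values of these same libraries as well as on their use as markers, so their levels and fold changes are given as a description, with no test. All 8 had a mean of at least 10 normalized reads over all libraries and were among the 13422 genes that entered the fit across genes. PDPN did so only through siCTL, with a mean of 14.6 there and 8.62 in siG3BP1.

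WI-38 cells, a strain of normal human embryonic lung fibroblasts, were treated with an siRNA against exon 4 of G3BP1 (siG3BP1) or with a scrambled siRNA (siCTL). All cells of both groups were irradiated with 10 Gy to induce senescence and were harvested at day 8, and total RNA was sequenced in 2 libraries (A and B) per group. The comparison asked how RNA levels in senescent cells differ when G3BP1 is depleted. It holds 1 cell strain and 1 of the siRNAs of the study, with no library of proliferating cells, and nothing in the labels says that A and B were separate cultures, so the spread between them may be technical, although the study states in general terms that settings were repeated independently. The guide strand of the siRNA is shown because it defines the siG3BP1 group, with its seed (bases 2 to 8) in capitals.
siG3BP1: uCAACAUGgcgaaucuuggtg
Its complement lay at position 356 of the G3BP1 transcript and in no other protein-coding transcript searched. The site that pairs with the seed was present in the 3′ UTR of 16.8% of 19526 protein-coding genes and of 0 of the 8 markers.

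Resting fibroblasts become activated in wound repair, fibrosis and tumor stroma, where they spread, contract and secrete matrix. FAP and DPP4 are surface peptidases that cut after proline, POSTN and TNC are secreted matricellular proteins that tie matrix to integrins, PDPN and THY1 are surface glycoproteins, S100A4 is a calcium-binding protein and VIM forms intermediate filaments. These genes mark partly different fibroblasts and are not switched on by a single pathway, and DPP4 is also known as a surface protein of senescent fibroblasts.

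The siRNA target itself was low in both siG3BP1 libraries. G3BP1 had 2675 and 2522 normalized reads (reads divided by the size factor of each library) in siCTL A and B, and 201 and 271 in siG3BP1 A and B. The log2 fold change was -3.47 (SE 0.34, n = 2 libraries per group, adjusted p = 9.10e-21, limma with Benjamini-Hochberg adjustment). Limma took this SE from the trend over genes and not from the spread of G3BP1 itself. The log2 fold change lay between -3.69 and -3.26 with any 1 library left out. It was -2.32 (adjusted p = 0.0305, limma) after correction of each library for its trend with GC content. The libraries held 16944404 to 22745000 reads in genes. Levels followed exonic GC content in opposite ways in the groups: Spearman's rho between a library's deviation from the gene mean and GC content, across 13350 genes that are not independent, was -0.79 and -0.71 in siCTL A and B and 0.77 and 0.62 in siG3BP1 A and B. Mitochondrial transcripts took 2.20% to 2.68% of reads in siCTL and 3.18% to 3.51% in siG3BP1. The part of either in the values below was not tested beyond the GC correction given beside them.

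The cells carried fibroblast RNA. All 8 listed fibroblast identity genes had a mean of at least 10 normalized reads, led by COL1A1, a chain of type I collagen. Of 11 epithelial genes, 4 reached this level with KRT18 highest, their sum was 985 to 1138 in siCTL and 1403 to 2321 in siG3BP1, and KRT5, SFTPC and SCGB1A1 were at 0 in every library. Of 8 immune genes 2 did, with a sum of 73.5 to 81.4 against 101 to 107 and with MS4A1 and NKG7 at 0. Of 8 endothelial genes 2 did, and TEK made up nearly all of their sum with 4453 and 2978 normalized reads in siCTL against 929 and 1434 in siG3BP1, while CDH5 and CLDN5 were at 0. The sum of 6 neural genes was 115 to 126 in siCTL and 42.9 to 59.0 in siG3BP1, and that of 5 mesothelial genes was 30.0 to 42.3 and 51.6 to 63.8. All 8 muscle and pericyte genes reached this level, and their sum was 13574 to 14758 in siCTL and 17588 to 29083 in siG3BP1. The part of these genes in the values of the markers was not tested, and in bulk RNA fewer cells of a type cannot be told apart from less RNA per cell.

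The markers spanned a wide range of levels, from one of the most abundant mRNAs of the cells to one near the lower limit of the fit. Levels of different genes are compared per kilobase of exon. In siCTL A and B, VIM stood highest with 14585 and 14491 normalized reads per kilobase, followed by TNC with 2159 and 3084, THY1 with 1568 and 1458 and S100A4 with 711 and 700.3. POSTN came next with 201 and 490.0 per kilobase, then DPP4 with 183 and 191, FAP with 58.9 and 85.0, and PDPN with 3.23 and 4.63. No neighbors in this order overlapped between their siCTL libraries, although the lower POSTN library was close to DPP4. In siG3BP1 A and B the upper part of the order stayed VIM (26259 and 22186 per kilobase), TNC (3739 and 2887), THY1 (2867 and 1912) and S100A4 (2390 and 1584), with THY1 and S100A4 overlapping. DPP4 (57.3 and 124 per kilobase) there had a higher mean than POSTN (25.8 and 97.6), and these overlapped, with FAP (5.996 and 18.1) and PDPN (1.78 and 2.87) below them. By mean over the 4 libraries VIM ranked 20 and PDPN 12768 among those of the 13422 genes that had a known exonic length. The order of the markers over all libraries was the same when the longest transcript of each gene set its length.

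**Figure D1:**
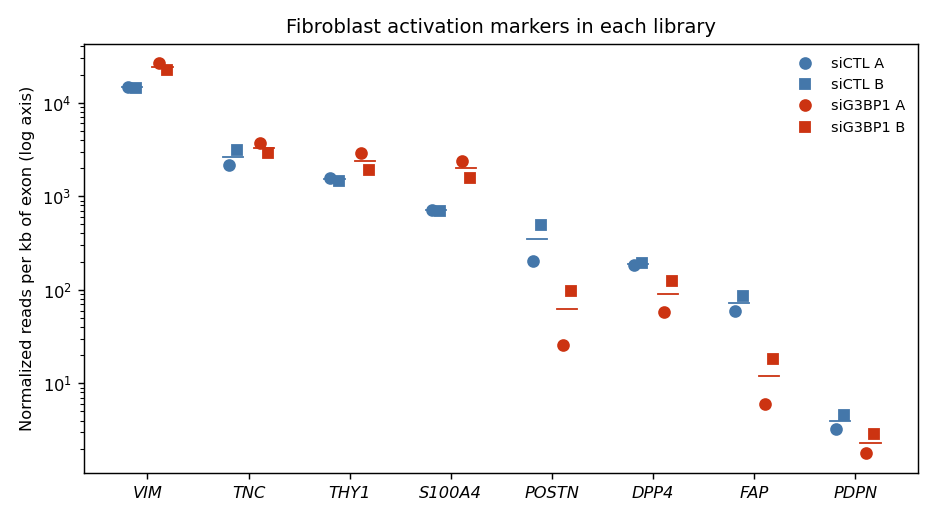
Normalized reads per kilobase of exon (log axis) of the 8 markers in siCTL A and B (blue) and siG3BP1 A and B (red), with circles for A, squares for B and lines for the mean of the 2 libraries. FAP, DPP4, POSTN and PDPN lay lower in both siG3BP1 libraries, THY1, S100A4 and VIM higher, and TNC overlapped.

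Of the 8 markers, 3 (FAP, DPP4 and POSTN) were past the threshold of the fit (limma, Benjamini-Hochberg adjusted p under 0.05) in the lower direction in siG3BP1, where 30.5% of all tested genes were called. In the higher direction 2 (S100A4 and VIM) were past it, where 25.9% of all tested genes were called, and PDPN, THY1 and TNC passed in neither. In 4 markers (FAP, DPP4, POSTN and PDPN) both siG3BP1 libraries lay below both siCTL libraries, as in 40.5% of all tested genes. Of these, PDPN met the filter only through siCTL. In 3 (THY1, S100A4 and VIM) both lay above, as in 42.8%. The median log2 fold change was -0.19 over the markers and 0.04 over all tested genes. Because the markers were selected with this contrast known, nothing is read from these counts. In 8 of 8 markers siG3BP1 A lay further from the siCTL mean than siG3BP1 B. The share of all tested genes with this order was not taken, and the 18 relatives named below had it as well. Spearman's rho with GC content was also larger in siG3BP1 A (0.77) than in siG3BP1 B (0.62), so the order is not read as particular to the markers. Without siCTL A, FAP and POSTN remained past the threshold in the lower direction, without siCTL B only FAP did, and S100A4 and VIM were lost in both. Without siG3BP1 A, FAP, DPP4 and S100A4 were past it, and without siG3BP1 B, THY1 joined the 5.

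The promoters of 6 markers (DPP4, POSTN, PDPN, S100A4, TNC and VIM) were in the RefSeq table of GRCh38.p14, which gives 250 bases before to 50 after each start. FAP and THY1 were not. Those of POSTN, DPP4 and S100A4 are shown because POSTN and DPP4 were lower and S100A4 higher in siG3BP1, and because their base composition differs widely. Capitals mark the motifs TGANTCA (the AP-1 core), TTCNNNGAA (STAT), both searched on both strands, and TATAAA, searched on the gene's strand.
POSTN, chr13:37598719-37599018, minus strand: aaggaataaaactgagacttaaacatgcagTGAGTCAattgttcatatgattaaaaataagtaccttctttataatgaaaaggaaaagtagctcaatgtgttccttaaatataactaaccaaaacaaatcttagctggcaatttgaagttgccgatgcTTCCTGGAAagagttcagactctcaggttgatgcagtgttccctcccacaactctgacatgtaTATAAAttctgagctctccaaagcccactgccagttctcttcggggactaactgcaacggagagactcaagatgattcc
DPP4, chr2:162074166-162074465, minus strand: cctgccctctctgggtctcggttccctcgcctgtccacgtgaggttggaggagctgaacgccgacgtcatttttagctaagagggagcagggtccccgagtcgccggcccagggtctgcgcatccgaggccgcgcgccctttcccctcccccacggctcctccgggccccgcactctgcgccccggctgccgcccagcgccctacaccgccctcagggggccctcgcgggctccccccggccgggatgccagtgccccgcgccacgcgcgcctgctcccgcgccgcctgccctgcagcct
S100A4, chr1:153545757-153546056, minus strand: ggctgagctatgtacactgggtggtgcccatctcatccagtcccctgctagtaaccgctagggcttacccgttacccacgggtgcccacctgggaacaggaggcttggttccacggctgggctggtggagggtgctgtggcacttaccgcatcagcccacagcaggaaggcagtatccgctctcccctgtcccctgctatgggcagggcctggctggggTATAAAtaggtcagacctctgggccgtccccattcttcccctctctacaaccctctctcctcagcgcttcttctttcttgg
POSTN held TGAGTCA 220 bases, TTCCTGGAA 92 bases and TATAAA 29 bases before its start, and S100A4 held TATAAA 31 bases before its start. The AP-1 core was found in 7.71% of 35116 promoters of this length, the STAT motif in 7.66% and TATAAA in 7.33%. The first 2 motifs occurred in POSTN alone among the 6. The pattern searched for NF-kappaB, found in 11.3% of promoters, matched none of the 6. Other forms of that site were not counted, such as the letters gggaattcc in the TNC promoter, so its absence is not shown. GC content of the promoter was 39.0% in POSTN, 75.0% in DPP4 and 60.7% in S100A4, against a median of 58.7%. A match of letters is a description and not a bound site.

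FAP, the membrane peptidase after which activated fibroblasts are often sorted, was lower in siG3BP1. It had 410.3 and 593 normalized reads in the siCTL libraries A and B and 41.8 and 126 in siG3BP1 A and B. Both siG3BP1 libraries lay far below both siCTL libraries, and siG3BP1 B was 3.02 times siG3BP1 A. The means were 501 ± 129 and 84.0 ± 59.7 (SD, n = 2), a 5.97-fold difference, and the log2 fold change was -2.75 (SE 0.34), close to that of POSTN. It was -1.96 without siG3BP1 A and -3.55 without siG3BP1 B. FAP (ENSG00000078098.13) lies on the minus strand of chromosome 2 of GRCh38 from 162170684 to 162245151. Its exons hold 38.3% GC, and after correction of each library for its trend with GC content the log2 fold change was -1.52.

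DPP4 (CD26), a close relative of FAP that trims dipeptides from chemokines and incretins and binds adenosine deaminase, was lower as well, by less. It had 2646 and 2756 normalized reads in the siCTL libraries A and B, which nearly coincided, and 827 and 1789 in siG3BP1 A and B. The siG3BP1 libraries were apart by 2.16 times and both lay below siCTL. The means were 2701 ± 77.5 and 1308 ± 680.0 (SD, n = 2), a 2.07-fold difference, and the log2 fold change was -1.15 (SE 0.33). It was -0.59 without siG3BP1 A and -0.28 after correction for GC content, of which DPP4 exons hold 42.4%. DPP4 (ENSG00000197635.9) lies on the same strand of chromosome 2, from 161992241 to 162074542, 96.1 kb from FAP.

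The peptidase pair did not keep its proportion. Proportions within a library need no scaling between libraries, but they keep its trend with GC content. There were 15.5 and 21.5 FAP reads per 100 DPP4 reads in siCTL A and B, and 5.05 and 7.05 in siG3BP1 A and B. The groups did not overlap, and the mean proportion was 3.06 times higher in siCTL. FAP against VIM gave 0.544 and 0.790 reads per 100 in siCTL and 0.0307 and 0.110 in siG3BP1. After GC correction the log2 fold change was -1.52 for FAP, -0.28 for DPP4 and 0.45 for VIM.

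POSTN (periostin), a TGF-β-induced matrix protein that binds integrins and collagen, was lower in siG3BP1 and was the most variable marker. It had 1101 and 2677 normalized reads in the siCTL libraries A and B and 141 and 533 in siG3BP1 A and B. The B library was higher in both groups, by 2.43 times in siCTL and 3.79 times in siG3BP1, yet the groups did not overlap. The means were 1889 ± 1115 and 337 ± 278 (SD, n = 2), a 5.60-fold difference, and the log2 fold change was -2.64 (SE 0.34, which limma took from the trend over genes, whereas the pooled SD of POSTN on the log2 scale was 1.15). It ranged from -1.69 without siG3BP1 A to -3.60 without siG3BP1 B. POSTN (ENSG00000133110.14) lies on the minus strand of chromosome 13 from 37562583 to 37598844. Its exons had the lowest GC content of the markers, 35.7%, and the GC-corrected log2 fold change was -1.33.

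TNC (tenascin-C), a hexameric matrix protein made in wounds and tumor stroma and a binding partner of periostin, overlapped between the groups. It had 20705 and 29568 normalized reads in the siCTL libraries A and B and 35852 and 27683 in siG3BP1 A and B. The siG3BP1 B library lay between the siCTL libraries. The means were 25137 ± 6267 and 31768 ± 5776 (SD, n = 2), and the log2 fold change was 0.35 (SE 0.32). It was 0.09 without siCTL A, 0.61 without siCTL B, 0.02 with scaling by total reads, -0.28 with quantile normalization and -0.11 after GC correction, so no direction can be given. TNC (ENSG00000041982.15) lies on the minus strand of chromosome 9 from 115019578 to 115118257, and its exons hold 52.0% GC.

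The matricellular partners thus differed in their profiles. Per 100 TNC reads there were 5.32 and 9.06 POSTN reads in siCTL A and B and 0.393 and 1.93 in siG3BP1 A and B. POSTN and FAP, in contrast, kept a similar proportion, with 37.3 and 22.1 FAP reads per 100 POSTN reads in siCTL and 29.7 and 23.7 in siG3BP1, and these overlapped. The proportions keep the GC trend. After GC correction the log2 fold change was -1.33 for POSTN, -0.11 for TNC and -1.52 for FAP.

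PDPN (podoplanin), a mucin-like glycoprotein that activates the platelet receptor CLEC-2 and binds ezrin-family proteins, was scarcely expressed. It had 11.97 and 17.2 normalized reads in the siCTL libraries A and B and 6.60 and 10.7 in siG3BP1 A and B. These rest on 15, 28, 6 and 13 reads, whose exact Poisson 95% intervals, which cover counting error only, reach from 8.40 to 24.7, 18.6 to 40.5, 2.20 to 13.1 and 6.92 to 22.2 reads. The groups did not overlap, but on the normalized scale the intervals of siCTL A (6.70 to 19.7) and siG3BP1 B (5.67 to 18.2) nearly coincide. The log2 fold change on the log2(value + 0.5) scale was -0.74 (SE 0.59), and -0.81 after GC correction. PDPN (ENSG00000162493.16) lies on the plus strand of chromosome 1 from 13583465 to 13617957, with 48.6% GC in its exons.

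THY1 (CD90), a GPI-anchored glycoprotein of the immunoglobulin family that binds integrins and is a classical fibroblast surface marker, was higher in both siG3BP1 libraries. It had 10816 and 10058 normalized reads in the siCTL libraries A and B and 19779.9 and 13190 in siG3BP1 A and B. The groups did not overlap, though siG3BP1 B was near siCTL A. The means were 10437 ± 536 and 16485 ± 4660 (SD, n = 2), and the log2 fold change was 0.63 (SE 0.33), which was 0.34 without siG3BP1 A and 0.92 without siG3BP1 B. It was 0.30 with scaling by total reads and -0.13 after correction for GC content, which is 56.1% in its exons and the highest of the markers. THY1 (ENSG00000154096.13) lies on the minus strand of chromosome 11 from 119417378 to 119424985 and shares 632 exonic bases with the antisense gene THY1-AS1, which had 0.615 to 0.745 reads per 100 THY1 reads.

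S100A4 (FSP1), a calcium-binding protein that acts on nonmuscle myosin, had the largest difference in the higher direction among the markers. It had 672 and 662 normalized reads in the siCTL libraries A and B, which nearly coincided, and 2261 and 1499 in siG3BP1 A and B. Both siG3BP1 libraries lay well above siCTL. The means were 667 ± 6.85 and 1880 ± 539 (SD, n = 2), a 2.82-fold difference, and the log2 fold change was 1.46 (SE 0.34). It was 1.17 without siG3BP1 A, 1.13 with scaling by total reads and 0.80 after GC correction, and it remained positive in each of the 18 alternative settings. That of VIM did so too, and those of FAP, DPP4, POSTN and PDPN stayed negative wherever they were fitted. Some settings, such as the replicate block, leave the fold change as it is. S100A4 (ENSG00000196154.11) lies on the minus strand of chromosome 1 from 153543613 to 153550136, within the cluster of S100 genes, and its exons hold 54.5% GC.

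VIM (vimentin), the intermediate filament protein of mesenchymal cells, was higher in siG3BP1 with the smallest spread among the markers. It had 75491 and 75003 normalized reads in the siCTL libraries A and B and 135917 and 114835 in siG3BP1 A and B. The groups were clearly apart. The means were 75247 ± 345 and 125376 ± 14907 (SD, n = 2), a 1.67-fold difference, and the log2 fold change was 0.73 (SE 0.32). With a pseudocount of 5 the log2 fold change was still 0.73, but VIM was no longer past the threshold. As a share of all reads in genes, VIM took 0.558% and 0.538% in siCTL and 0.720% and 0.729% in siG3BP1, so that with scaling by total reads the log2 fold change was 0.40, and after GC correction it was 0.45. VIM (ENSG00000026025.15) lies on the plus strand of chromosome 10 from 17228259 to 17237593, with 50.3% GC in its exons. Its antisense neighbor VIM-AS1 shares 656 exonic bases with it.

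The proportions within the libraries set these higher markers side by side. There were 0.890 and 0.883 S100A4 reads per 100 VIM reads in siCTL A and B and 1.66 and 1.30 in siG3BP1 A and B, so S100A4 differed by more than VIM. THY1 reads per 100 VIM reads were 14.3 and 13.4 in siCTL and 14.6 and 11.5 in siG3BP1, which overlapped. These proportions keep the GC trend as well. After GC correction the log2 fold change was 0.80 for S100A4, 0.45 for VIM and -0.13 for THY1, so THY1 and VIM then had opposite signs. Among all pairs of markers the THY1 and VIM profiles over the 4 libraries were the closest (Euclidean distance 0.27 on the log2 scale), and FAP and POSTN were the closest among the markers that were lower in siG3BP1 (0.59).

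**Figure D2:**
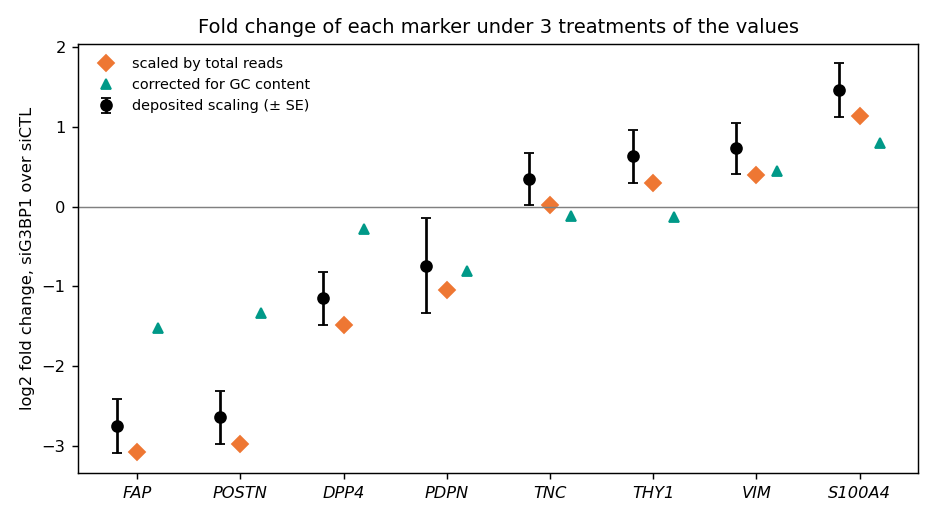
log2 fold change of siG3BP1 over siCTL for each marker with the deposited scaling (black, ± SE from limma), with scaling by total reads (orange) and after correction for GC content (green). FAP and POSTN lay below -1 and S100A4 above 0.7 under all 3, whereas THY1 and TNC changed sign after GC correction, to -0.13 and -0.11.

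Fold changes of all genes varied with exonic GC content, and the markers are placed here against that trend. Among all tested genes the median log2 fold change was -1.35 in the decile with the lowest exonic GC content and 0.99 in the decile with the highest. FAP and POSTN fell in the lowest decile, and their values of -2.75 and -2.64 lay below its 10th percentile of -1.82. DPP4 in decile 3 (-1.15) lay within the range of its decile, whose median was -1.07 and 10th percentile -1.62. PDPN (-0.74) and VIM (0.73) were both in decile 6, where the 10th percentile was -0.73 and the 90th 0.96. TNC (0.35) and THY1 (0.63) were below the medians of deciles 7 and 8, which were 0.62 and 0.84. S100A4 (1.46) lay above the 90th percentile of decile 8, 1.21. After the correction none of the 8 was past the threshold, when 1 gene of all those tested (G3BP1) was called and 3775 had an unadjusted p under 0.05.

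**Figure D3:**
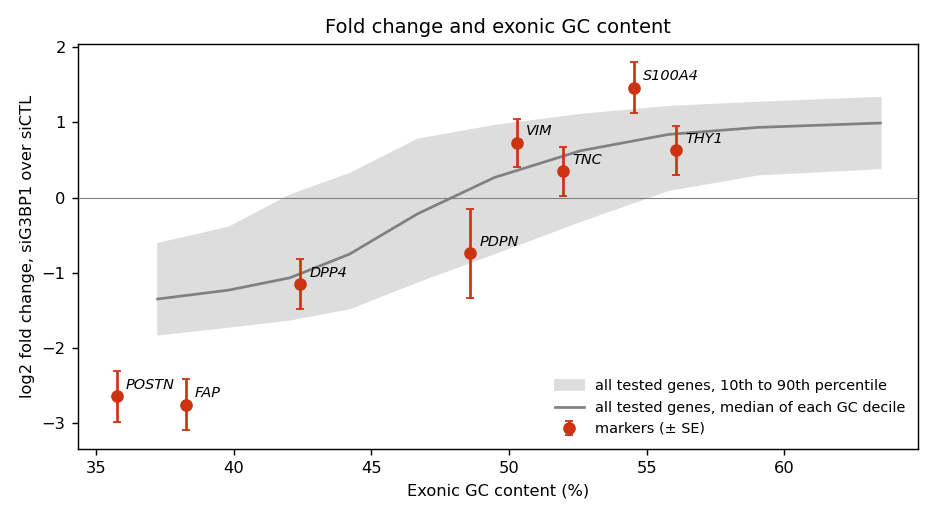
log2 fold change of siG3BP1 over siCTL against exonic GC content (%) for the 8 markers (red, ± SE from limma), with the median of each GC decile of the tested genes (gray line) and their 10th to 90th percentiles (shading). FAP and POSTN lie below the shading at the low end, S100A4 lies above it, and the others lie in or at its edge.

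Named for the likeness of their profile over the 4 libraries, the nearest protein-coding genes among about 10219 with a mean of at least 50 were PLA2G4A (distance 0.29) and DIO2 (0.36) for FAP, and STOX2 (0.32) and SOX4 (0.36) for POSTN. DPP4 was nearest to ZC3H6 and ZNF445, both at 0.04, with 129 and 140 normalized reads of ZC3H6 in siCTL A and B and 40.7 and 88.5 in siG3BP1. VIM was nearest to TPP1 (0.02), a lysosomal peptidase, and C19orf66 (0.02), THY1 to TNFAIP8L1 and RAE1 (both 0.05), S100A4 to PICK1 and COX6A1 (both 0.07), TNC to TONSL and HAPLN3 (both 0.06), and PDPN to MAGEH1 (0.10) and ZNF641 (0.11). FAP and POSTN thus had more distant nearest genes than the other markers. The distance is not scaled by the size of the change, which was largest in FAP and POSTN. The greater distance is therefore not read as a trait of these markers. These distances span 4 libraries and carry no test.

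Relatives and partners of the markers were tested in the fit across all genes. Limma took each SE from the trend over genes, so the SEs and p-values below do not carry a gene's own spread between libraries. In siG3BP1 A and B, for example, LUM had 46.2 and 318 normalized reads and CTHRC1 had 253 and 1988. Of 112 listed genes, 81 were expressed enough for the test, of which 28 fell, 21 rose and 32 passed in neither direction, and their median log2 fold change was 0.10, against 0.04 over all tested genes. These shares, 34.6% lower and 25.9% higher, lay near the 30.5% and 25.9% of all tested genes.

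Among 9 relatives of FAP and DPP4, 7 were tested, of which 2 fell and 3 rose. PREPL, a prolyl endopeptidase-like enzyme, fell from 1832 and 1558 normalized reads in the siCTL libraries A and B to 489 and 866 in siG3BP1 A and B (log2 fold change -1.38, SE 0.34, adjusted p = 0.000424, limma). The cytosolic dipeptidyl peptidases had opposite signs, with DPP9 higher (log2 fold change 1.27, adjusted p = 0.000975, limma) and DPP8 lower (-1.11, adjusted p = 0.00395), and without siG3BP1 A, PREPL had -0.96 and DPP9 0.88. After GC correction the log2 fold change was -0.15 for PREPL, 0.40 for DPP9 and 0.048 for DPP8. The median of this list was 0.31.

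Among 22 other matricellular proteins, relatives in function of POSTN and TNC, 16 were tested, of which 3 fell and 2 rose, and the median log2 fold change was 0.04. WISP1, a secreted CCN protein, fell from 197 and 186 normalized reads to 24.2 and 66.4 (log2 fold change -2.24, SE 0.37, adjusted p = 2.73e-07, limma). CTHRC1, a secreted protein of collagen-producing fibroblasts, had -1.98 (adjusted p = 6.56e-07, limma) and THBS2, a thrombospondin, had -1.13 (adjusted p = 0.00399, limma), but the siG3BP1 B library of each lay above its siCTL A library. When siG3BP1 A was left out, the values became -1.52 for WISP1, -0.50 for CTHRC1 and -0.39 for THBS2, without siG3BP1 B -2.96, -3.47 and -1.86, and after GC correction -1.78, -1.23 and -1.43. As in POSTN, the B library was the higher in both groups for CTHRC1 and THBS2.

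Among 25 receptors and binding partners of the markers, 18 were tested, of which 8 fell and 4 rose, and the median log2 fold change was -0.21. The 3 genes with the smallest p were integrin chains, which pair into receptors for matrix proteins such as tenascin, periostin or fibronectin. ITGA8 had 3066 and 2311 normalized reads in the siCTL libraries A and B and 222 and 759 in siG3BP1 A and B (log2 fold change -2.70, SE 0.34, adjusted p = 1.65e-12, limma). ITGA4 had -2.33 (adjusted p = 4.65e-09, limma) and ITGAV, the chain shared by several periostin receptors, had -2.28 (adjusted p = 6.74e-09, limma). Both ITGA4 and ITGAV had no overlap between the groups. After GC correction ITGA8 had -1.94, ITGA4 -1.07 and ITGAV -0.996. Without siG3BP1 A they had -1.81, -1.61 and -1.66.

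Most S100 genes tested were higher in siG3BP1, as S100A4 was, but the calls were lost in several settings. Of 18 further S100 genes 7 were tested, all on chromosome 1, of which 0 fell and 6 rose, and the median log2 fold change was 1.05. S100A6 had 12663 and 9735 normalized reads in the siCTL libraries A and B and 40051 and 20981 in siG3BP1 A and B (log2 fold change 1.38, SE 0.33, adjusted p = 0.000269, limma). S100A10, the partner of annexin A2, had 1.23 (adjusted p = 0.00138, limma) and S100A16 had 1.07 (adjusted p = 0.00491, limma). The exons of the 7 genes had a median GC content of 55.0%, their median log2 fold change was 0.30 after GC correction, and 0 of the 7 passed after it. With scaling by total reads 3 of the 7 passed, and 0 of the 7 did after length correction. After GC correction S100A6 had 0.49 and S100A16 had 0.22, whereas S100A10 had 1.47, more than before it. Without siG3BP1 A these genes had 0.92, 0.66 and 1.02.

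Among 12 intermediate filament genes and linkers, 8 were tested, of which 2 fell and 1 rose, and the median log2 fold change was 0.01, beside 0.73 for VIM. The linkers DST (log2 fold change -1.37, adjusted p = 0.000361, limma) and PLEC (1.21, adjusted p = 0.00120, limma), which both connect filaments to junctions, had opposite signs, which were close to 0 after GC correction (-0.22 and 0.24). The filament protein SYNM had -1.19 (adjusted p = 0.00204, limma), and -1.69 after that correction. Without siG3BP1 A, PLEC had 0.76 and SYNM -0.70.

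Of 26 other markers of fibroblasts, 25 were tested, of which 13 fell and 5 rose, with a median log2 fold change of -0.85 that was -0.05 after GC correction. LUM (lumican), a collagen-binding proteoglycan, had 620.3 and 1262 normalized reads in the siCTL libraries A and B and 46.2 and 318 in siG3BP1 A and B (log2 fold change -2.86, SE 0.34, adjusted p = 6.80e-14, limma). PDGFRA, a growth factor receptor of fibroblasts, had -1.65 (adjusted p = 2.57e-05, limma), and CSPG4 (NG2), a surface proteoglycan of pericytes, had 1.71 (adjusted p = 1.67e-05, limma). When siG3BP1 A was left out, the values became -1.48 for LUM, -0.97 for PDGFRA and 0.99 for CSPG4, without siG3BP1 B -4.25, -2.33 and 2.43, and after GC correction -1.54, -0.86 and 0.78. COL1A1 had 69912 and 139901 normalized reads in siCTL and 98562 and 113374 in siG3BP1, between the siCTL libraries, with a log2 fold change of 0.10.

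Fold changes of these relatives and calls on them both varied with the library left out, and the calls also varied with the GC correction. The 18 genes named from the 6 lists were picked by their small p in these same libraries, so a change of sign was unlikely. For each of them the sign held whichever library was left out. The log2 fold change of each was smallest in size without siG3BP1 A and largest without siG3BP1 B. After GC correction 0 of the 18 passed in limma, the smallest adjusted p among them being 0.0628 (S100A10). With the library letter as a block beside the correction, which leaves the fold changes as they are, 11 passed. The log2 fold changes of S100A10 (1.23 to 1.47), SYNM (-1.19 to -1.69) and THBS2 (-1.13 to -1.43) grew in size with the correction. Those of the other genes named from the lists shrank in size. A call lost after the correction is therefore not in itself a smaller difference.

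**Figure D4:**
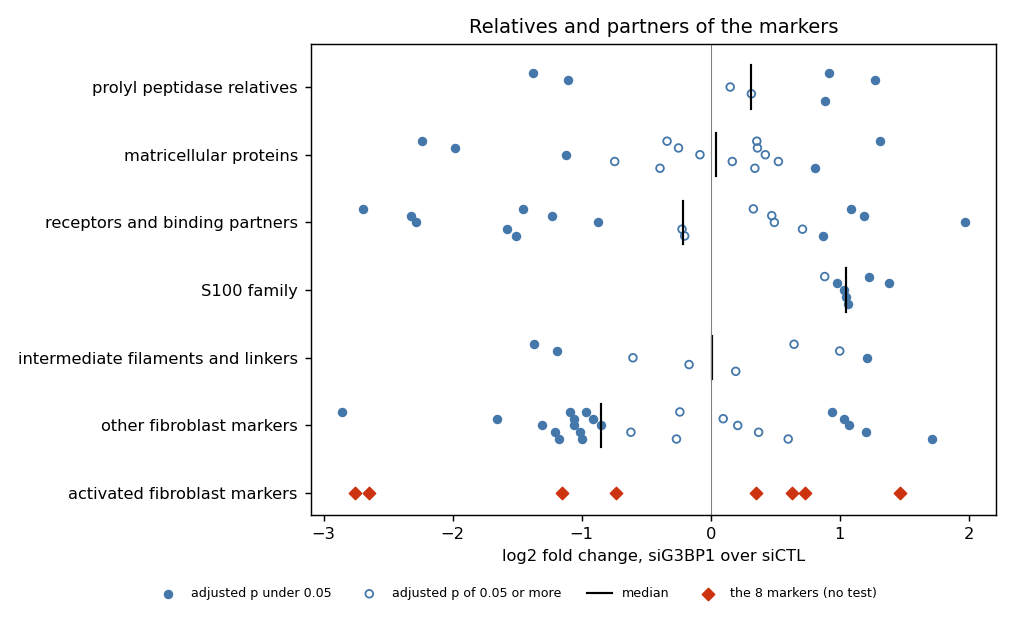
log2 fold change of siG3BP1 over siCTL for the tested genes of each of the 6 lists (blue, filled where the limma adjusted p was under 0.05, open otherwise, with a line at the median) and for the 8 markers (red diamonds, no test). The S100 family lies to the right, with a median of 1.05, the other fibroblast markers mostly to the left, with a median of -0.85, and the 8 markers span both sides.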

How the data were processed

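Total RNA of senescent WI-38 cells was sequenced as paired-end reads, trimmed with Trimmomatic 0.35 and aligned to GRCh38 with STAR, according to the methods and the submitters' processing notes, which also name TopHat2 2.0.10 and mouse builds without a role. Per the methods, reads per gene came from STAR, and RSEM gave TPM or FPKM values. The deposited values are a signal: the authors divided the reads of each gene by the DESeq2 1.22.1 size factor of its library. Dividing by the smallest nonzero value gave whole reads, within 1e-06 of a read, for 100% of values. The methods describe the libraries as stranded, but whether the counting used strand is not given in the sources used here. Columns of the authors' fold changes and p-values were not used.

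The siCTL libraries A and B held 16944404 and 22745000 reads in genes, the siG3BP1 libraries 17169469 and 19233994, and a library with 0 reads of a gene allows at most 3. Genes with a mean of at least 10 (13422 of 58219) were fitted with limma 3.58.1 (R 4.3.3) with a mean-variance trend on log2(value + 0.5), two-sided, p-values being adjusted by Benjamini-Hochberg and called under 0.05. Limma's prior degrees of freedom were infinite, so SEs follow the trend over genes. Fold changes on this scale understate those of low genes. Exonic length and GC content came from Gencode on GRCh38. The GC and length corrections took a loess trend (span 0.3) from each library's deviation. The code was checked on simulated data.

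The markers and lists were chosen with earlier results of these data known. Named were the 8 markers, G3BP1, the 3 genes of each list with the smallest p, the 2 nearest profiles per marker (mean of at least 50) and, for its level, COL1A1. Alternatives were pseudocounts of 1 and 5, filters, TMM, scaling by total reads, quantile normalization, leaving out each library, the replicate letter as a block, GC and length corrections, and, with the recovered reads, edgeR 4.0.16 and DESeq2 1.42.0.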

Additional observations from a re-analysis of the deposited data

How the results depend on the processing

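Against 3 markers past the threshold in the lower and 2 in the higher direction, the number in the higher direction was 1 in several settings. These were a pseudocount of 5, no filter, TMM, scaling by total reads, quantile normalization and GC correction with the replicate block. In each of them S100A4 remained and VIM was lost. The number was 2 with length correction alone, with THY1 in place of VIM. It was 0 with GC correction and with length correction plus block, and 3 with DESeq2, which added THY1. In the lower direction it was 0 with GC correction and 2 with GC correction plus block and with either length correction. Leaving out 1 library gave 1 to 3 lower and 0 to 3 higher markers, 12 to 5050 lower and 5 to 4575 higher genes of all tested, and 1 to 31 lower and 1 to 26 higher relatives. Scaling by total reads, which moved the median of all genes by -0.33 on the log2 scale, called 636 genes and 8 relatives higher. GC correction called 1 gene lower and 0 higher of all tested (3775 at an unadjusted p under 0.05) and 0 relatives. With the block it called 1923 lower and 1962 higher genes, and 22 lower and 12 higher relatives. Length correction left 18 lower relatives, and 17 with the block, and in both fits 0 S100 genes. TNC reversed to -0.28 with quantile normalization, and TNC (-0.11), THY1 (-0.13) and DPP8 (0.048) reversed after GC correction with or without the block. The cause was not tested.

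No source ties the letters A and B to a shared batch or day, although the study says in general that treatments had matching controls, so the main fit has no block. The deviations of the A libraries from their group means correlated with 0.30 across genes, in a single comparison of 2 pairs. The fit with the replicate block called 3664 lower and 2380 higher genes, and the same 3 lower and 2 higher markers. edgeR called 3992 lower and 3561 higher genes. PDPN rested on 6 to 28 reads.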

Other observations

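The antisense neighbors of VIM and THY1 kept nearly the same proportion to their partners in every library. VIM-AS1 had 692 and 672 normalized reads in the siCTL libraries A and B and 1227 and 1048 in siG3BP1 A and B, which is 0.917, 0.896, 0.903 and 0.913 reads per 100 VIM reads. ENSG00000234961, which shares 619 exonic bases with VIM, had 0.760, 0.642, 0.672 and 0.683 per 100. THY1-AS1 had 75.0 and 61.9 normalized reads in siCTL and 135 and 98.3 in siG3BP1, or 0.694, 0.615, 0.684 and 0.745 per 100 THY1 reads. Whether reads of VIM and THY1 were assigned to these genes was not tested.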
